A study of Mus musculus with 3 samples.

Results

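Levels of 10 genes of Wnt signalling were compared between single cells of the mouse blastocyst: the ligands Wnt6 and Wnt7b, the coreceptor Lrp6, the destruction complex genes Axin1, Axin2 and Apc, and the TCF/LEF factors Tcf7, Lef1, Tcf7l1 and Tcf7l2. They were taken by name as 10 of the 23154 genes counted in each of 3 libraries, and all 10 had counts in every library. Their levels were set side by side in cells high and low in Krt8+Krt18, the sum of a keratin pair that marks the outer epithelium of the blastocyst. Of 225 cells, 74 were keratin-high, 77 were keratin-middle and 74 were keratin-low.

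All cells came from embryos at embryonic day 3.5 of the Klf2-H2BmCherry mouse line, in which a nuclear red fluorescent protein reports Klf2, and only mCherry-positive embryos were used. The embryos had been collected at embryonic day 2.5 and cultured both static and shaking, but no cell carries a label for its culture, its embryo or its mCherry level, so the 3 libraries form 1 group. Keratin-high and keratin-low cells share genotype and age, their division between the culture conditions is unknown, and the keratin classes are a split by RNA level and not a treatment. The labels name no separate litters, cultures or animals for the libraries, so a p-value here reflects the spread among these libraries alone, and that spread may be technical.

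Wnt proteins are secreted, lipid-modified ligands that bring Frizzled receptors and the coreceptors LRP5 and LRP6 together. Without a ligand, a cytoplasmic complex built on AXIN and APC marks beta-catenin for destruction. With a ligand this complex is disabled, beta-catenin accumulates and enters the nucleus, and TCF/LEF factors on DNA turn from repression to activation of their targets. In mouse embryonic stem cells TCF7L1 acts mainly as a repressor of pluripotency genes, and its removal by beta-catenin is part of how Wnt signals favour self-renewal. Axin2 is a widely used target gene of the pathway and feeds back on it as an inhibitor.

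The 4 TCF/LEF genes encode one family of DNA-binding proteins, and the start of the HMG box, the domain that binds the motif of these factors, shows how close they are. The stretches below are 90 bases of coding sequence from the GENCODE M21 transcripts on mm10, shown 5′ to 3′ along the gene, and capitals mark the 62 bases that are the same in all 4 genes. They lie at chr11:52256970-52257059 on the minus strand in exon 7 of Tcf7, chr3:131194677-131194766 on the plus strand in exon 8 of Lef1, chr6:72631236-72631325 on the minus strand in exon 9 of Tcf7l1 and chr19:55918934-55919023 on the plus strand in exon 9 of Tcf7l2.
Tcf7: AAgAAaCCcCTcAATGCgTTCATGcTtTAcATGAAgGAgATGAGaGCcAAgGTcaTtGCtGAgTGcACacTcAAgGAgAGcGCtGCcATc
Lef1: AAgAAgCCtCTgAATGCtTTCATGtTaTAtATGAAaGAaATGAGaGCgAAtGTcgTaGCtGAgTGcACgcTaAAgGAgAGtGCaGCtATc
Tcf7l1: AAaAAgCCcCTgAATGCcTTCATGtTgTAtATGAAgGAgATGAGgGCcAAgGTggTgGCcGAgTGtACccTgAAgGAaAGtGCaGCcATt
Tcf7l2: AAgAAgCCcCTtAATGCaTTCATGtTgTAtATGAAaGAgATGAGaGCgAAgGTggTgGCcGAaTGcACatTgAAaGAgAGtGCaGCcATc
Tcf7l1 and Tcf7l2 shared the most bases in this stretch, 77 of 90, and Tcf7 and Tcf7l1 the fewest, 71 of 90. Even so, the longest run of bases shared by any pair of their transcripts was 23 bases, against reads of 150 bp, and within the last 500 bases, where the 3′ end libraries collect their reads, it was 21 bases.

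For the ligands, 57 bases around the serine to which the lipid is attached are shown, with capitals for the 35 bases that both genes share. They lie at chr1:74784166-74784222 on the plus strand in exon 4 of Wnt6 and chr15:85537785-85537841 on the minus strand in exon 4 of Wnt7b (mm10, GENCODE M21).
Wnt6: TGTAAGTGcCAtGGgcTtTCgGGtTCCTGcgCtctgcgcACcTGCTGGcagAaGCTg
Wnt7b: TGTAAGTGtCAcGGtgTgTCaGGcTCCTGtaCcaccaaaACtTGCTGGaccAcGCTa
The longest run shared by the whole transcripts of these ligands was 16 bases, and that shared by Axin1 and Axin2 was 21 bases. Exons of Wnt7b overlap AU022754 on the other strand, and those of Axin2, Lef1 and Tcf7l1 overlap Gm11670, Gm43352 and Gm15401 there. The counting's strand setting is not given in the sources at hand, so reads of each such pair cannot be told apart. In the count table AU022754 had 33 counts and Gm15401 had 0 counts over all cells.

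The retained cells held 30526460, 27518501 and 54264436 counts in replicates 1, 2 and 3, where each replicate is a library of 96 cell barcodes. Of these barcodes 83, 64 and 78 had at least 2000 genes with a count and were kept as cells. Median counts per cell were 316170, 498144 and 635141 in keratin-high cells and 286484, 411794 and 501074 in keratin-low cells of replicates 1, 2 and 3. Median Krt8+Krt18 levels, which drew the classes and are no finding, were 3663, 5355 and 5595 CPM (counts scaled to a library total of 1e6) in keratin-high cells and 80.8, 257 and 147 CPM in keratin-low cells. The least of the keratin-high cells stood at 1285, 2235 and 3982 CPM, the middle class ran from 153 to 1083, from 567 to 2205 and from 379 to 3190 CPM, and the highest keratin-low cells stood at 147, 531 and 376 CPM in replicates 1, 2 and 3.

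The keratin classes also differed in other markers of blastocyst cell types. Summed over 15 trophectoderm markers other than the keratins, the level was 3629 ± 1616 CPM (SD, n = 3 libraries) in keratin-high and 500 ± 115 CPM in keratin-low cells, with ranges that did not overlap. The 13 epiblast and inner cell mass markers summed to 665 ± 303 CPM in keratin-high and 1561 ± 299 CPM in keratin-low cells, with Sox2 at 0 in all cells. The 15 primitive endoderm markers summed to 2009 ± 1287 and 1024 ± 225 CPM in keratin-high and keratin-low cells. Their ranges overlapped, and in replicate 1 the sum was lower in keratin-high cells, at 791 against 1089 CPM. Blood, cumulus, fibroblast and oviduct markers summed to at most 17.8 CPM in each class and library. One set of cells stood apart: in replicate 1, 22 of the 27 keratin-low cells had barcodes 33 to 64, and in these the oocyte markers summed to 250 CPM, against 17.3 CPM in the other 5 keratin-low cells. Over the keratin-low class the oocyte markers ranged from 9.40 to 221 CPM, against 10.1 to 21.4 CPM over the keratin-high class. The keratin-middle class ranged from 10.4 to 321 CPM, and its highest sum, in replicate 1, was above that of the keratin-low class. The labels do not say how barcodes 33 to 64 differ from the rest, and values without them in replicate 1 are given below where a call, a direction or a size changed.

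Between keratin-high and keratin-low cells, none of the 10 genes passed the threshold in edgeR with all cells. Counts were summed per library and class, edgeR's quasi-likelihood fit held a term for the library, and Benjamini-Hochberg adjustment ran over 12154 genes. The test called 0 of the 10 genes, while of all genes tested 0.156% were called, 0.14% as higher and 0.0165% as lower in keratin-high cells. One gene of the 10, Wnt7b, had an unadjusted p below 0.05, as did 10.3% of all genes tested. DESeq2 on the same sums called 1 of the 10, again Wnt7b, and 7.27% of all genes. Likewise edgeR without barcodes 33 to 64 of replicate 1 called Wnt7b alone among the 10, and 5.07% of all genes. The libraries of the 2 classes did not overlap for 2 of the 10 genes, Wnt7b with higher levels in keratin-high cells and Tcf7l1 with lower levels, and for 12.2% of all genes tested, 6.61% higher and 5.57% lower. The median log2 fold change of keratin-high over keratin-low cells was -0.38 over the 10 genes and -0.01 over all genes.

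**Figure D1:**
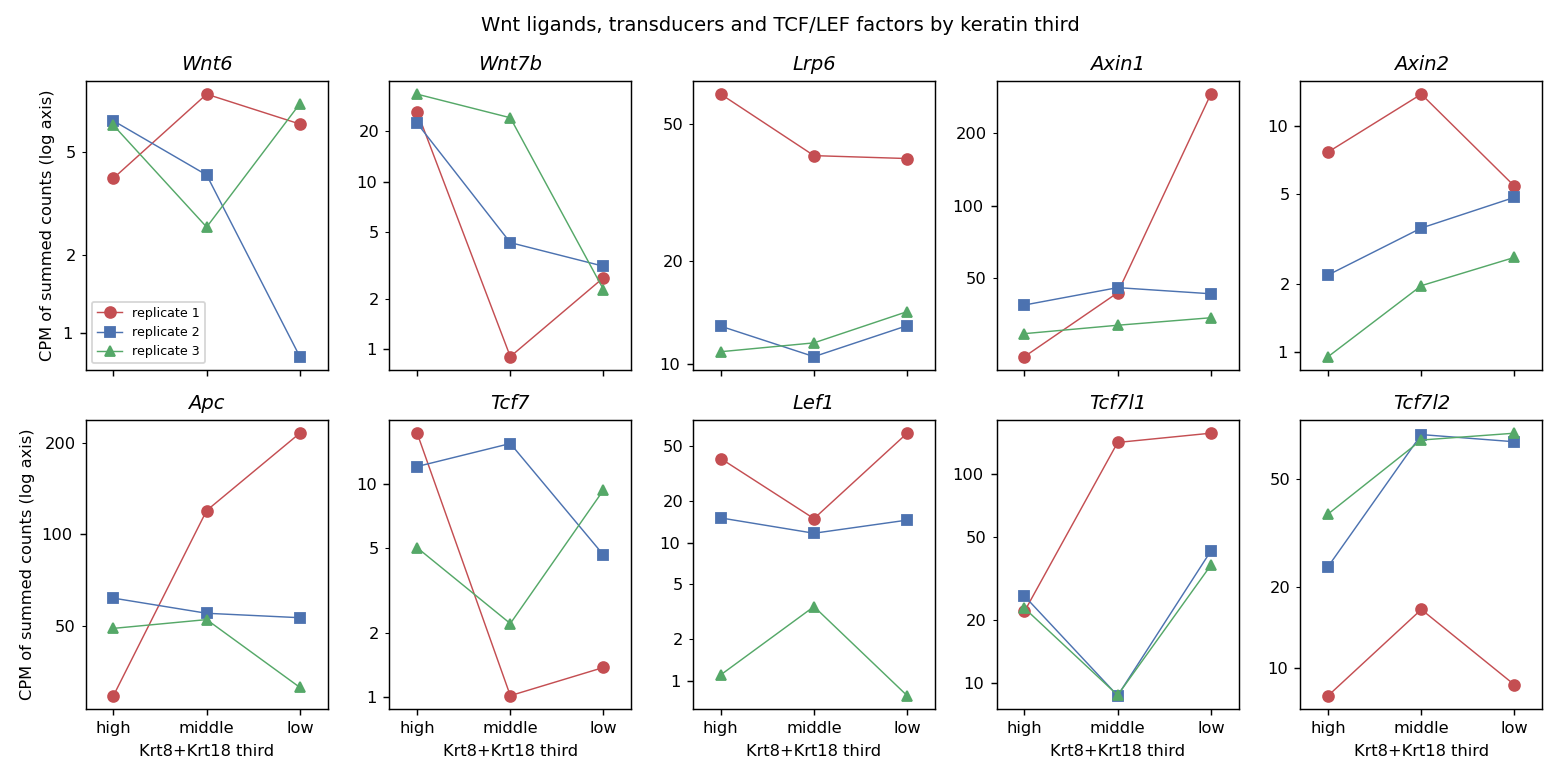
Level of each of the 10 genes (CPM of the summed counts, log axis) in keratin-high, keratin-middle and keratin-low cells, with a point and line for each of the 3 libraries. Wnt7b lies between 22.4 and 33.4 CPM in keratin-high cells and between 2.27 and 3.13 CPM in keratin-low cells, and replicate 1 holds the highest keratin-low levels of Axin1, Apc, Lef1 and Tcf7l1.

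Wnt7b, a ligand that signals through beta-catenin in lung, kidney and placenta, had the largest log2 fold change of the 10 genes. Its level was 26.2, 22.4 and 33.4 CPM in keratin-high cells of replicates 1, 2 and 3, against 2.68, 3.13 and 2.27 CPM in keratin-low cells. Every keratin-high library stood above every keratin-low library. The fitted difference was 9.57-fold, a log2 fold change of 3.26 (SE 0.78, 95% interval 1.5 to 5.02), and it did not pass over all genes (edgeR, Benjamini-Hochberg adjusted p = 0.160). The call changed with the tool and with the cells of replicate 1 that stood apart. With DESeq2 the log2 fold change was 3.21 (Benjamini-Hochberg adjusted p = 0.000544). Without barcodes 33 to 64 of replicate 1 it was 3.93 (SE 0.88, edgeR, Benjamini-Hochberg adjusted p = 0.0277), a setting chosen after the data had been seen. That setting left 5 keratin-low cells in replicate 1, and these had 0 CPM of Wnt7b, so 1 of the keratin-low sums was at the floor.

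The fitted difference of Wnt7b had the same direction within each set of barcodes. The fitted log2 fold change was 2.85 among barcodes 1 to 32 and 2.74 among barcodes 33 to 64. In barcodes 33 to 64 replicate 1 went the other way. Its 1 keratin-high cell there had 0 CPM of Wnt7b, against 3.05 CPM in its 22 keratin-low cells. Among barcodes 65 to 96, where replicate 3 had no keratin-high cell, it was 3.31 in replicates 1 and 2. None of the 3 sets passed in edgeR (Benjamini-Hochberg adjusted p = 0.363, 0.950 and 0.797). Trophectoderm markers moved with Wnt7b across the classes, as given above, and their part in its difference was not tested.

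Wnt7b was spread over many keratin-high cells. It had a count in 74.1%, 71.4% and 73.1% of the keratin-high cells of replicates 1, 2 and 3, against 22.2%, 23.8% and 15.4% of the keratin-low cells. The mean shares were 72.9% ± 1.34 (SD, n = 3 libraries) and 20.5% ± 4.48. With each cell thinned to 20000 counts they were 30.3% ± 12.4 in keratin-high and 5.56% ± 1.91 in keratin-low cells, 22 of 71 and 4 of 71 cells. Shares thus differed in the same direction at equal depth, where 3 keratin-high and 3 keratin-low cells were left out as too shallow. The few counts in keratin-low cells came mostly from 1 cell in replicates 1 and 3, though not in replicate 2. The top cell gave 78.8%, 41.9% and 87.5% of the keratin-low counts of replicates 1, 2 and 3. Among keratin-high cells the top cell gave 15.5%, 19.6% and 19.6% of the counts. Without the top cell of each class and library the levels were 23.6, 20.7 and 28.5 CPM in keratin-high and 0.61, 1.96 and 0.29 CPM in keratin-low cells, and the log2 fold change was 4.68 (edgeR, Benjamini-Hochberg adjusted p = 0.0810).

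In keratin-middle cells Wnt7b differed between libraries, with 0.90, 4.33 and 24.1 CPM in replicates 1, 2 and 3. The middle class of replicate 3 was thus close to the keratin-high class, while that of replicate 1 was below the keratin-low class. Over all cells of a library the Spearman rho of Wnt7b with Krt8+Krt18 was 0.54, 0.43 and 0.47 in replicates 1, 2 and 3. Among the 10 genes this mean rho of 0.48 was the highest, and the next was 0.12 for Lef1. A given cell contributes its depth to both values, so rho is a description only.

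**Figure D2:**
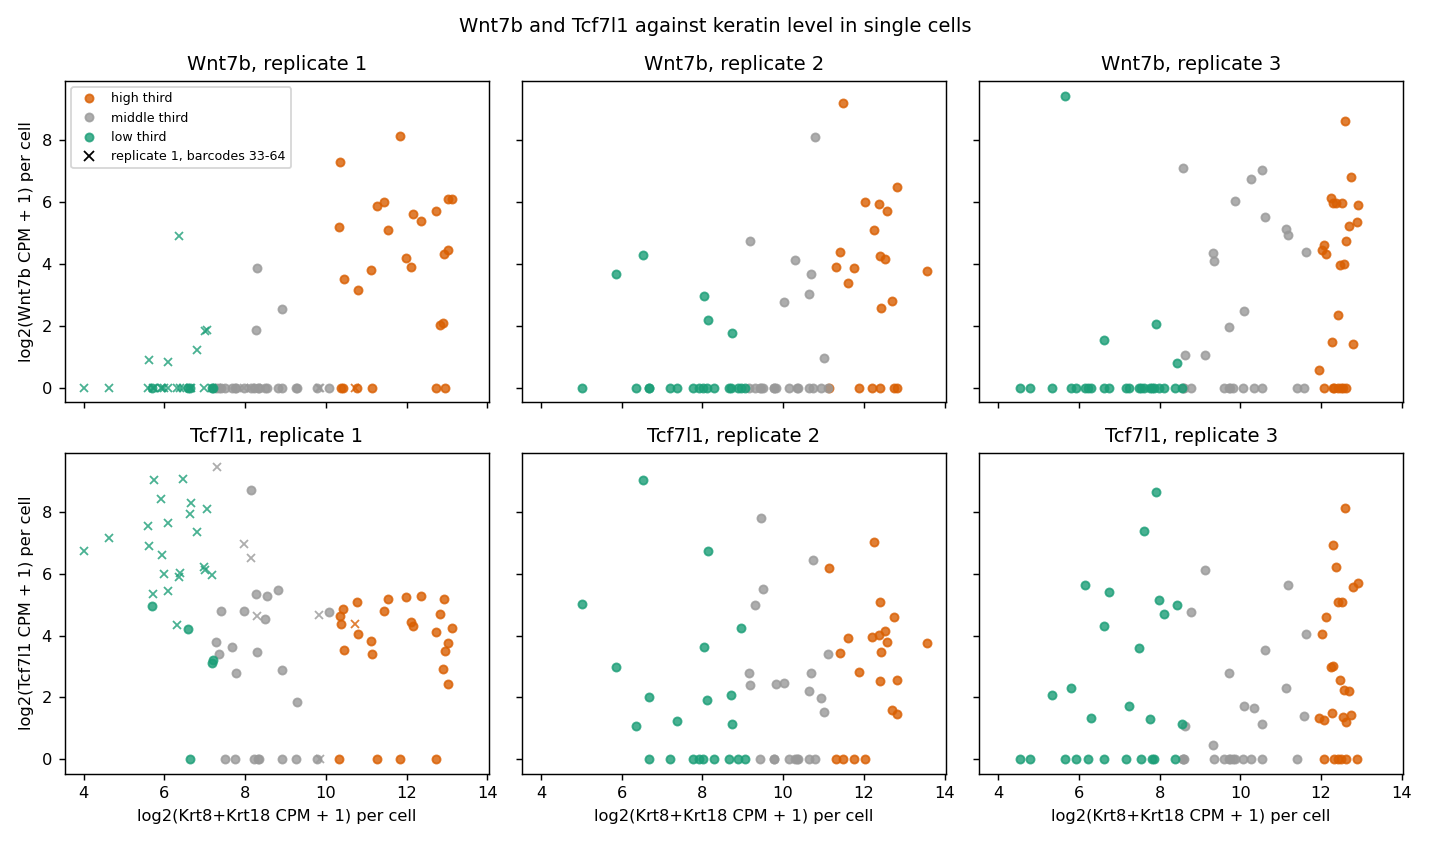
Level of Wnt7b and of Tcf7l1 in each cell, as log2(CPM + 1), against Krt8+Krt18, as log2(CPM + 1), in replicates 1, 2 and 3, coloured by keratin class, with crosses for barcodes 33 to 64 of replicate 1. Wnt7b points above 0 are most frequent among keratin-high cells in each library, and the crosses hold most of the high Tcf7l1 values of replicate 1, where 22 of the 27 keratin-low cells are crosses.

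Wnt6, a ligand known from epithelia of the early mouse embryo and its extraembryonic tissues, showed no such pattern. Its level was 3.96, 6.59 and 6.34 CPM in keratin-high cells of replicates 1, 2 and 3, against 6.41, 0.81 and 7.67 CPM in keratin-low cells. The ranges overlapped, and replicate 2 alone was higher in keratin-high cells. On the log2 scale the fold change was 0.47 with a 95% interval of -2.19 to 3.14 (edgeR, Benjamini-Hochberg adjusted p = 0.915), so an excess in either class was within the error. Wnt6 had a count in 17 of 74 keratin-high and 17 of 74 keratin-low cells, which at 20000 counts per cell was 3 of 71 and 3 of 71 cells. It rested on few counts, 229 in keratin-high and 195 in keratin-low cells over the 3 libraries, and its direction turned without replicate 2 (log2 fold change -0.55) and, near 0, without barcodes 33 to 64 of replicate 1 (-0.03).

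Lrp6, the coreceptor, did not differ detectably between the classes. It stood at 61.1, 12.9 and 10.9 CPM in keratin-high cells of replicates 1, 2 and 3, against 39.7, 12.9 and 14.2 CPM in keratin-low cells. Replicate 1 was the highest library in both classes. As a log2 fold change this was 0.01 with a 95% interval of -1.41 to 1.42 (edgeR, Benjamini-Hochberg adjusted p = 0.999). In keratin-high cells of replicate 1 a single cell gave 76.2% of the Lrp6 counts, and without it the level there was 16.0 CPM. The log2 fold change of Lrp6 without barcodes 33 to 64 of replicate 1 was 0.42 (edgeR, Benjamini-Hochberg adjusted p = 0.797). Lrp6 had a count in 54 of 74 keratin-high and 60 of 74 keratin-low cells.

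Axin1 is the scaffold that holds the destruction complex together. Its level was 23.4, 38.5 and 29.2 CPM in keratin-high cells of replicates 1, 2 and 3, against 291, 42.8 and 34.0 CPM in keratin-low cells. It was lower in keratin-high cells in each of the 3 libraries, although the ranges overlapped, and in replicates 2 and 3 the log2 ratios were -0.16 and -0.22, against -3.64 in replicate 1. Its log2 fold change was -1.27 (SE 0.87, edgeR, Benjamini-Hochberg adjusted p = 0.666). In replicate 1 a single cell gave 82.9% of the keratin-low counts, at 2001 CPM of that cell, and without it the keratin-low level was 56.6 CPM. Without barcodes 33 to 64 of replicate 1 the log2 fold change of Axin1 was 0.08 (edgeR, Benjamini-Hochberg adjusted p = 0.964). Leaving out all of replicate 1 gave -0.18.

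Axin2, the feedback inhibitor and target gene, was scarce in both classes. Its level was 7.70, 2.20 and 0.96 CPM in keratin-high cells of replicates 1, 2 and 3, against 5.43, 4.85 and 2.63 CPM in keratin-low cells. It was lower in keratin-high cells in replicates 2 and 3 and higher in replicate 1. The fitted log2 fold change was -0.77 with a 95% interval of -3.23 to 1.69 (edgeR, Benjamini-Hochberg adjusted p = 0.849). Without barcodes 33 to 64 of replicate 1 it was -1.37 (edgeR, Benjamini-Hochberg adjusted p = 0.504). Axin2 rested on 113 counts in 16 of 74 keratin-high cells and 152 counts in 26 of 74 keratin-low cells. Thinned to 20000 counts, 8 of 71 cells of either class had a count of Axin2, so a difference was not detectable at that depth.

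Apc encodes the large tumour suppressor that binds beta-catenin and AXIN in the destruction complex. Its level was 29.6, 61.8 and 49.2 CPM in keratin-high cells of replicates 1, 2 and 3, against 215, 53.4 and 31.5 CPM in keratin-low cells. Replicates 2 and 3 were thus higher in keratin-high cells and replicate 1 was lower. On the log2 scale the fold change was -0.63 (SE 0.85, edgeR, Benjamini-Hochberg adjusted p = 0.843), and its sign turned to 0.43 without replicate 1 and to 0.63 without barcodes 33 to 64 of replicate 1. In replicate 1 the keratin-low level of Apc was 243 CPM in barcodes 33 to 64, against 13.3 CPM in the other 5 keratin-low cells. Apc had a count in 66 of 74 keratin-high and 62 of 74 keratin-low cells.

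Tcf7l1, the TCF factor that represses pluripotency genes in mouse embryonic stem cells, was at lower levels in keratin-high cells of each library. Its level was 21.9, 26.0 and 22.7 CPM in keratin-high cells of replicates 1, 2 and 3, against 156, 42.6 and 36.4 CPM in keratin-low cells. Every keratin-high library stood below every keratin-low library. As a log2 fold change this was -1.45 (SE 0.72, 95% interval -3.06 to 0.17), which did not pass (edgeR, Benjamini-Hochberg adjusted p = 0.533). Its size depended on the cells of replicate 1 that stood apart. Keratin-low cells of replicate 1 had 176 CPM of Tcf7l1 in barcodes 33 to 64, against 11.3 CPM in the other 5, and without these barcodes the log2 fold change was -0.22 (edgeR, Benjamini-Hochberg adjusted p = 0.892). Without replicate 1 it was -0.69 (edgeR, Benjamini-Hochberg adjusted p = 0.547).

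Counts of Tcf7l1 were concentrated in few keratin-low cells of the other libraries. A single cell gave 86.7% of the keratin-low counts of replicate 2 and 48.5% of those of replicate 3, and without it the levels there were 6.09 and 19.6 CPM. The same step left 10.2 and 15.5 CPM in keratin-high cells of replicates 2 and 3, so that replicate 2 was then higher in keratin-high cells. More keratin-high than keratin-low cells held a count of Tcf7l1, 60 of 74 against 53 of 74. In replicates 2 and 3 the shares were 81.0% and 76.9% of keratin-high cells and 57.1% and 57.7% of keratin-low cells, while in replicate 1 they were 85.2% and 96.3%. Thinned to 20000 counts the shares were 28.2% ± 7.47 in keratin-high and 31.8% ± 26.7 in keratin-low cells (SD, n = 3 libraries). The order of these mean shares was thus not that of the full counts. In replicates 1, 2 and 3 the thinned shares were 34.6%, 30% and 20% of keratin-high cells, against 61.5%, 10% and 24% of keratin-low cells. Within a library the order turned in replicate 3 alone. The rho of Tcf7l1 with Krt8+Krt18 over cells was -0.50 in replicate 1, and 0.23 and 0.18 in replicates 2 and 3.

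Tcf7l2 encodes the TCF factor best known for maintaining stem cells of the intestine. Its level was 7.92, 23.8 and 37.2 CPM in keratin-high cells of replicates 1, 2 and 3, against 8.68, 68.8 and 74.0 CPM in keratin-low cells. It was lower in keratin-high cells in each library, by log2 ratios of -0.13, -1.53 and -0.99, but the ranges overlapped because replicate 1 was low in both classes. Its log2 fold change was -0.96 with a 95% interval of -2.38 to 0.45 (edgeR, Benjamini-Hochberg adjusted p = 0.652). Without barcodes 33 to 64 of replicate 1 it was -1.40 (SE 0.40, edgeR, Benjamini-Hochberg adjusted p = 0.0743), and it was negative in each of 18 alternative settings, between -1.98 and -0.50, although no setting passed.

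Levels of Tcf7l2 in keratin-middle cells, 16.5, 73.2 and 69.8 CPM in replicates 1, 2 and 3, were close to those of keratin-low cells in replicates 2 and 3. The top cell gave 19.6%, 19.5% and 15.8% of the keratin-low counts of Tcf7l2 in replicates 1, 2 and 3, against 16.3%, 86.7% and 48.5% for Tcf7l1, so the counts of Tcf7l2 were the more evenly spread in replicates 2 and 3 and not in replicate 1. Tcf7l2 had a count in 48 of 74 keratin-high and 53 of 74 keratin-low cells. Median levels per cell were 0, 3.48 and 15.3 CPM in keratin-high cells of replicates 1, 2 and 3, against 0.86, 43.3 and 58.7 CPM in keratin-low cells.

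Tcf7, which encodes the T cell factor TCF1, and Lef1, the factor first known from lymphoid cells, varied between libraries as much as between classes. Tcf7 stood at 17.3, 12.1 and 5.03 CPM in keratin-high cells of replicates 1, 2 and 3, against 1.38, 4.65 and 9.38 CPM in keratin-low cells. It was higher in keratin-high cells in replicates 1 and 2 and lower in replicate 3. The fitted log2 fold change was 1.28 with a 95% interval of -1.27 to 3.83 (edgeR, Benjamini-Hochberg adjusted p = 0.751). Tcf7 had a count in 19 of 74 keratin-high and 17 of 74 keratin-low cells, and in 8 of 71 and 4 of 71 cells when thinned to 20000 counts. In replicate 2 a single cell gave 72.7% of the keratin-high and another 73.9% of the keratin-low counts of Tcf7. Its value without barcodes 33 to 64 of replicate 1 was 0.52 on the log2 scale (edgeR, Benjamini-Hochberg adjusted p = 0.823).

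Lef1 stood at 40.5, 15.1 and 1.11 CPM in keratin-high cells of replicates 1, 2 and 3, against 61.9, 14.6 and 0.78 CPM in keratin-low cells. The order of the libraries was the same in both classes, and the libraries were further apart than the classes. In replicate 2 a single cell gave 66.2% of the keratin-high and another 91.7% of the keratin-low counts of Lef1. Without these cells the levels there were 5.45 CPM in keratin-high and 1.31 CPM in keratin-low cells. Without the top cell of each class and library the log2 fold change of Lef1 was 0.67 (edgeR, Benjamini-Hochberg adjusted p = 0.777). The log2 fold change of Lef1 was -0.12 with a 95% interval of -1.63 to 1.39 (edgeR, Benjamini-Hochberg adjusted p = 0.963), and 1.34 without barcodes 33 to 64 of replicate 1 (edgeR, Benjamini-Hochberg adjusted p = 0.564). In replicate 1 a single cell of those barcodes gave 62.9% of the keratin-low counts of Lef1, at 472 CPM of that cell. The keratin-low cells of replicate 1 in those barcodes held 70.2 CPM of Lef1, against 2.0 CPM in the other 5. Axin1, Apc, Tcf7l1 and Lef1 were thus all higher in the keratin-low cells of replicate 1 that also held more oocyte marker RNA. Lrp6, at 42.8 against 17.3 CPM in the other 5, and Wnt7b were higher there too. The rest of the 10 genes went the other way. Wnt6 stood at 4.25 against 22.0 CPM and Axin2 at 3.23 against 21.3 CPM. Tcf7 stood at 0.46 against 7.98 CPM and Tcf7l2 at 6.47 against 24.6 CPM. Other marker sums moved in these cells as well, with 1006 CPM of epiblast and inner cell mass markers in barcodes 33 to 64 against 2782 CPM in the other 5 cells, 1158 against 589 CPM of primitive endoderm markers and 667 against 365 CPM of trophectoderm markers. The part of these markers in the values of the 10 genes was not tested.

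**Figure D3:**
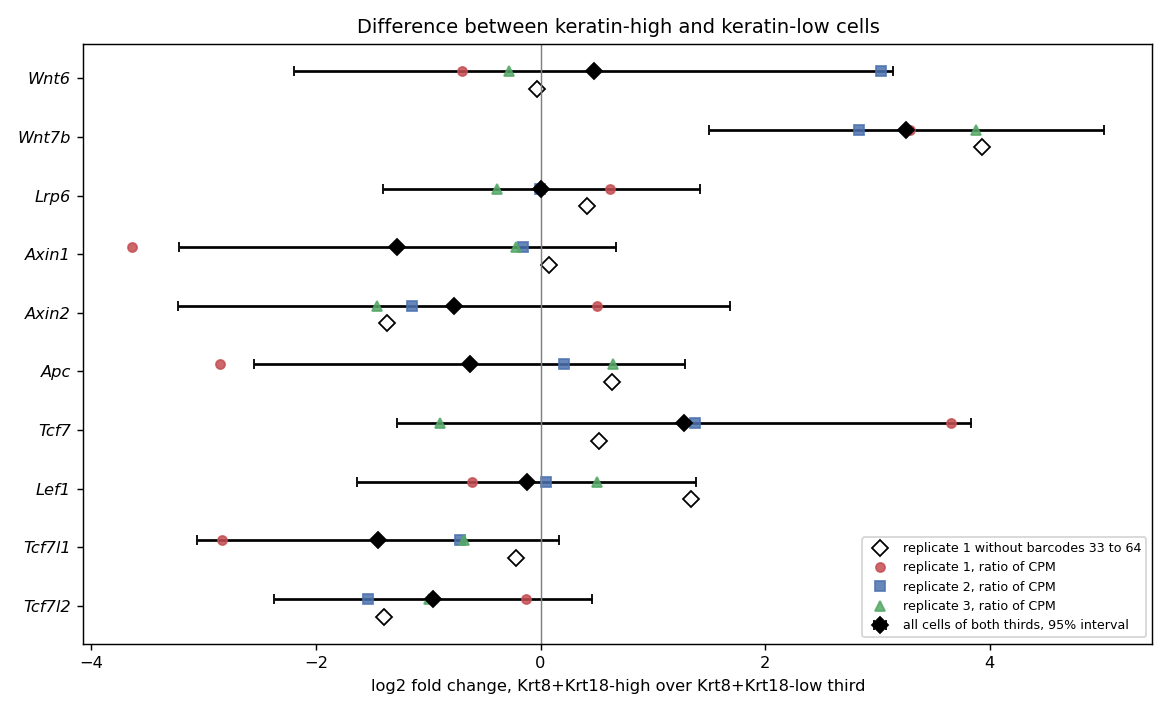
Log2 fold change of keratin-high over keratin-low cells for the 10 genes, with the fitted value and its 95% interval (black), the log2 ratio of CPM in each library (coloured) and the fitted value without barcodes 33 to 64 of replicate 1 (open). The interval of Wnt7b, 1.5 to 5.02, is the only one of the 10 that lies wholly on one side of 0, and the open points of Axin1, Apc, Lef1 and Wnt6 lie across 0 from the black ones.

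The number of cells with a count divided the genes into frequent and rare ones. Over all 225 cells, Apc had a count in 84.0%, Axin1 in 82.2%, Lrp6 in 76.9%, Tcf7l1 in 70.7% and Tcf7l2 in 68.4%. Lef1 had one in 45.3%, Wnt7b in 41.3%, Axin2 in 31.6%, Tcf7 in 24.0% and Wnt6 in 22.7%. Wnt7b was the single gene of the 10 whose shares in the 2 keratin classes did not overlap between libraries, with all counts and after thinning. The 63 barcodes left out as cells, which held 319716 counts in all, had a count of Wnt7b in 1 barcode and of Wnt6 in 0 barcodes, against 15 and 17 of 74 keratin-low cells, which were sequenced far deeper.

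**Figure D4:**
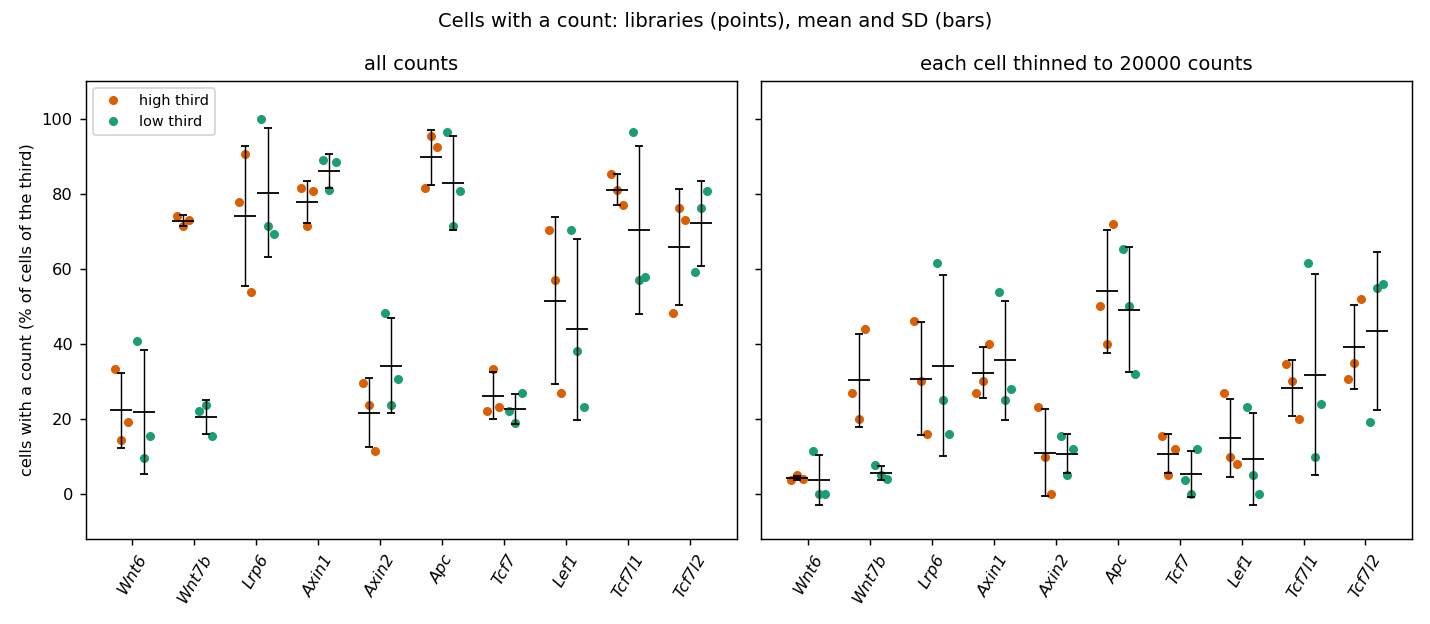
Share of cells with a count of each gene in keratin-high and keratin-low cells, with a point for each of the 3 libraries and bars for their mean and SD, for all counts (left) and with each cell thinned to 20000 counts (right). Wnt7b has 72.9% of keratin-high and 20.5% of keratin-low cells on the left and 30.3% and 5.56% on the right, while the shares of the other 9 genes overlap between the classes.

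Across cells, the 10 genes varied largely apart from each other. The highest mean rho over the 3 libraries among their pairs was 0.35 between Apc and Tcf7l1, with 0.54, 0.22 and 0.30 in replicates 1, 2 and 3. For Tcf7l2 the genes with the most similar pattern over cells were Epha4 (mean rho 0.40), an ephrin receptor, Jam2 (0.38), a junctional adhesion molecule, and Procr (0.38), the protein C receptor, against a 99th percentile of 0.26 over 9172 genes seen in at least 20% of the cells of every library. For Tcf7l1 they were D130043K22Rik (0.48), Bc1 (0.46) and Arhgef1 (0.46), against 0.37, and for Apc they were Acaca (0.43), Dennd4c (0.42) and Dock3 (0.42), against 0.32. Axin1 had Ccdc57, Nploc4 and Ccdc88c at 0.32 each, against 0.23. Wnt7b, added after its values had been seen, had Gata3 (0.50), a trophectoderm transcription factor, Krt18 (0.48) and Nlrp4e (0.47), against 0.33. Cells of a library share its depth and its barcode sets, so these values describe the cells and were not tested.

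Other genes of the pathway were described from a list of 105 genes, of which 104 were in the table and 60 passed the filter on low counts. None of the 60 passed in edgeR after adjustment over all genes (0 called), 3 had an unadjusted p below 0.05 with higher levels in keratin-high cells and 6 with lower levels, and of all genes tested 4.74% and 5.51% did. DESeq2 called 4 of the 60 as higher and 4 as lower, against 3.07% and 4.2% of all genes. Of 57 tested without barcodes 33 to 64 of replicate 1, edgeR called 2 as higher and 4 as lower. In that setting, chosen after the data had been seen, it called 5.07% of all genes in either direction. The median log2 fold change was -0.19 over the 60 genes. By role, the median was 0.72 over 7 ligands, -0.78 over 7 receptors and coreceptors, 1.79 over 5 secreted and receptor-bound antagonists, 0.04 over 16 cytoplasmic transducers, -0.35 over 11 nuclear cofactors and -1.30 over 5 pluripotency genes that TCF7L1 binds in mouse embryonic stem cells. It was -1.03 over 3 target genes, 2.82 over 2 ligand secretion genes and -0.49 over 4 genes of receptor turnover and R-spondins.

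The 9 pathway genes with an unadjusted p below 0.05 were named after their values had been seen. Wls, which carries Wnt ligands to the cell surface, had 17, 114 and 101 counts in keratin-high cells of replicates 1, 2 and 3, against 2, 0 and 0 counts in keratin-low cells. All keratin-high libraries of Wls stood above all keratin-low ones, but 1 cell gave 89.5% of the keratin-high counts of replicate 2. Wls did not pass in edgeR (Benjamini-Hochberg adjusted p = 0.268, and 0.0547 without barcodes 33 to 64 of replicate 1). Kremen2, a receptor that removes LRP6 from the surface together with DKK1, was at 14.6 to 28.8 CPM in keratin-high and 2.63 to 4.90 CPM in keratin-low cells (log2 fold change 2.39, edgeR, Benjamini-Hochberg adjusted p = 0.303, and 0.114 without barcodes 33 to 64 of replicate 1). Cdx2, a trophectoderm factor that is a Wnt target in other tissues, was at 40.5 to 139 CPM in keratin-high and 1.01 to 5.26 CPM in keratin-low cells (log2 fold change 4.95, edgeR, Benjamini-Hochberg adjusted p = 0.0860). Cdx2 passed in 11 of 18 alternative settings. Without barcodes 33 to 64 of replicate 1 it passed at a log2 fold change of 4.49 (edgeR, Benjamini-Hochberg adjusted p = 0.00448). With all cells DESeq2 called Cdx2 at 4.90 (Benjamini-Hochberg adjusted p = 5.81e-08). The other tested target genes of the list, Ccnd1 and Myc, went the other way with all cells. Their log2 fold changes were -1.03 and -1.07 (edgeR, Benjamini-Hochberg adjusted p = 0.708 and 0.647).

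Among the 6 at lower levels in keratin-high cells were Nanog and Esrrb, 2 pluripotency genes that TCF7L1 binds in mouse embryonic stem cells. Both also belong to the 13 epiblast and inner cell mass markers summed above. The other tested pluripotency genes of the list were Klf2, Tfcp2l1 and Tbx3, at log2 fold changes of -1.30, 0.30 and -0.26. Nanog was at 30.5 to 38.4 CPM in keratin-high and 120 to 419 CPM in keratin-low cells (log2 fold change -2.64, edgeR, Benjamini-Hochberg adjusted p = 0.173). Esrrb was at 8.1 to 11 CPM in keratin-high and 33.7 to 56.1 CPM in keratin-low cells (log2 fold change -2.35, edgeR, Benjamini-Hochberg adjusted p = 0.206). The libraries of the 2 classes overlapped for neither gene. Both passed without barcodes 33 to 64 of replicate 1, Nanog at -2.48 and Esrrb at -2.47 (edgeR, Benjamini-Hochberg adjusted p = 0.00561 and 0.00796). Nanog passed in 5 of 18 alternative settings and Esrrb in 3 of 18, DESeq2 among them for both. Wnt5b, a ligand that mostly acts without beta-catenin, was at 1.10 to 24.3 CPM in keratin-high and 7.98 to 1139 CPM in keratin-low cells, with the highest value in replicate 1. Its log2 fold change was -3.61 with all cells (edgeR, Benjamini-Hochberg adjusted p = 0.138) and -2.31 without barcodes 33 to 64 of replicate 1, where it passed (edgeR, Benjamini-Hochberg adjusted p = 0.0296). Wnt5b passed in 3 of 17 alternative settings, with DESeq2 and the fit with no filter as the others. The beta-catenin partner inhibitor Ctnnbip1 (log2 fold change -2.06, and -0.87 without those barcodes), the kinase gene Hipk2 (-1.99, and -0.22 without them) and the receptor gene Fzd9, which had a count in at most 4 keratin-high cells of a library, were the others. Beta-catenin itself, Ctnnb1, was at 16.9, 89.2 and 51.9 CPM in keratin-high cells of replicates 1, 2 and 3, against 5.19, 73.8 and 57.5 CPM in keratin-low cells (log2 fold change 0.52, edgeR, Benjamini-Hochberg adjusted p = 0.823).

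**Figure D5:**
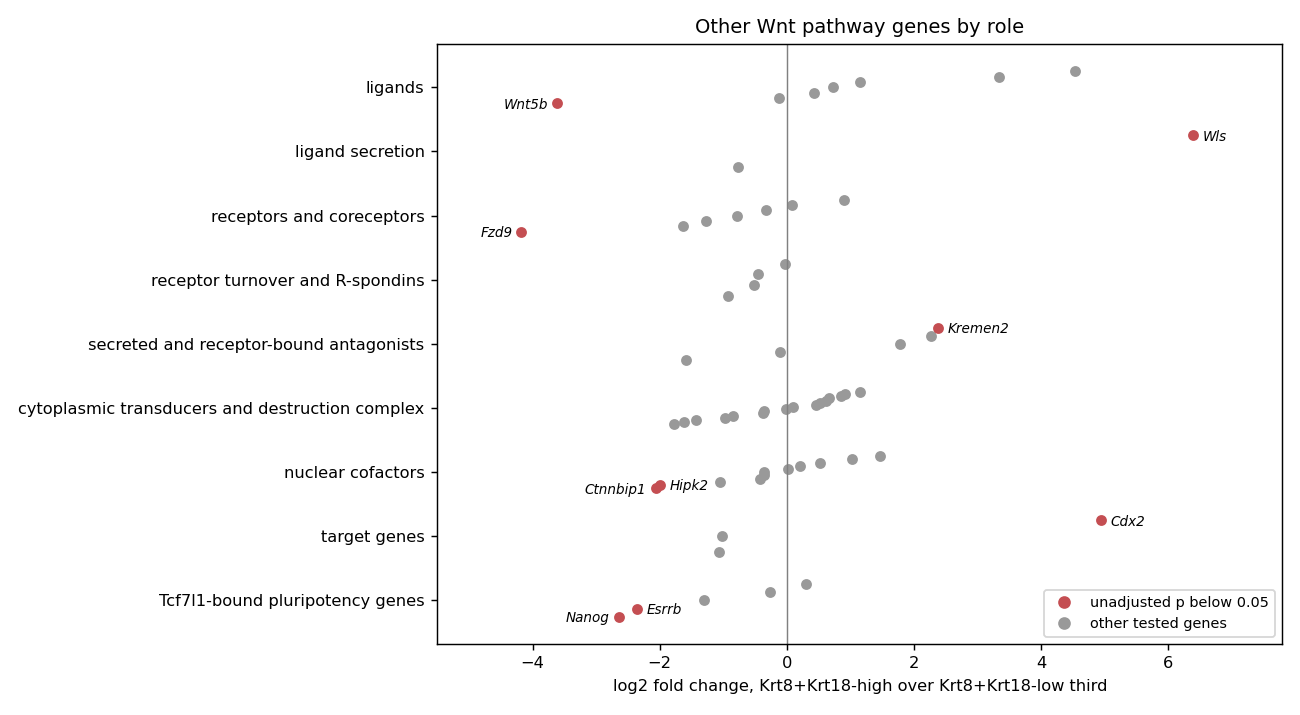
Log2 fold change of keratin-high over keratin-low cells for the 60 tested genes of the pathway list, grouped by role, with the 9 genes at an unadjusted p below 0.05 in red and named. None of the 60 passed in edgeR with all cells after adjustment over all genes, while DESeq2 called 8, and Wls, Cdx2 and Kremen2 lie on the right and 6 named genes on the left.

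Promoters were read for the 6 genes with an entry in the RefSeq table (GRCm38.p6), as 11 windows of 300 bases from 250 before to 50 after a start. The motif of TCF/LEF factors was searched on both strands in 4 spellings. The first was AACAAAG. Another spelling, ATCAAAG, has a T at its second letter. The third was TACAAAG. The last spelling was TTCAAAG. It was found in 2 of 11 windows, 1 of Lef1 with the third spelling and 1 of Tcf7l2 with the first, there on the other strand, and in 16.9% of 32851 windows of the same length. The share among the 11 windows was thus 18.2%, close to that of all windows, and a match is a description of letters and not a binding site.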

How the data were processed

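Cells of mouse blastocysts were profiled in 3 libraries of 96 barcodes by a 3′ end Smart-seq2 protocol with molecular identifiers, per the labels' protocols. The deposited values were raw counts per gene symbol and barcode. CASAVA 1.8, HISAT2, HTSeq and the build mm10 appear in the submitters' processing notes. Annotation, strand setting and whether counts are reads or molecules are not given there. The 95% intervals come from edgeR's fit over library sums and include the spread between libraries. No doublet caller was run.

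Barcodes with at least 2000 genes with a count were kept (225 of 288). The same barcode set was used in each library, and 46 barcode numbers were kept in all 3, which are different cells. Cells were sorted by CPM of Krt8+Krt18 in each library and divided into 3 classes of near equal size, ties by barcode number. Counts were summed per library and class and tested with edgeR 4.0.16 (R 4.3.3; filterByExpr, TMM, quasi-likelihood test, library as a block, which is where the pairing comes from, since both classes come out of the same library), with Benjamini-Hochberg adjustment over all genes and a threshold of 0.05. Krt8 and Krt18 were left out of the counts of calls. The classes were drawn on the cells tested, and p-values do not include that step. The fit was tested on simulated counts first. Alternatives used DESeq2 1.42.0 and limma 3.58.1, other cuts, filters and scalings, and thinning to 20000 counts (8 cells under that were left out). Further alternatives left out 1 library at a time or took single barcode sets. Genes named were the 10 members, and pathway genes by the rule of adjusted p below 0.05, of which there was none, so those at an unadjusted p below 0.05 are given and marked. The members and the lists were chosen with earlier results of these data known. Spearman's rank correlation was taken over the cells of a library on log2(CPM + 1) and averaged over the 3 libraries.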

Additional observations from a re-analysis of the deposited data

Results flagged for a closer look

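Barcodes with fewer than 2000 genes with a count, 63 over the 3 libraries, entered no comparison, and some of them held counts of the 10 genes. Those genes with more than 3 counts over these barcodes are given, and 3 is a fixed cut and not a test. Tcf7l2 had 33 counts in these barcodes, in 5 of them, and Axin1 had 20 counts in 3 of them. Lrp6 had 9 counts, Tcf7 had 9 counts, Apc had 8 counts and Axin2 had 4 counts. Whether these barcodes hold damaged cells, empty wells or reads from other barcodes was not tested.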

How the results depend on the processing

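Wnt7b stayed higher in keratin-high cells in all 17 alternatives with a value (log2 fold change 2.55 to 4.68) and passed in DESeq2 and without barcodes 33 to 64 of replicate 1, which made 1 of the 10 genes called in each of these. Tcf7l2 stayed lower in 18 alternatives and Axin2 in 15. Leaving out 1 library gave 17 to 406 called genes over all genes, 0 among the 10 genes and 0 to 5 in the pathway list, against 19, 0 and 0. The 406 came without replicate 1 and the 17 without replicate 3, and 141 came without replicate 2. Leave-one-library-out log2 fold changes turned sign for Wnt6 (-0.55 to 1.31), Lrp6 (-0.19 to 0.31), Apc (-1.32 to 0.43) and Lef1 (-0.28 to 0.26).

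Over all genes and the pathway list, the numbers called were 883 and 8 in DESeq2, 165 and 2 with no filter on low counts, 84 and 1 with a cut at the median, 90 and 1 with a cut pooled over libraries, 79 and 1 by mean CPM in limma, 269 and 3 in barcodes 1 to 32, 74 and 3 in barcodes 65 to 96, 593 and 6 without barcodes 33 to 64 of replicate 1, and 75 and 1 without the top cell of each gene. RLE size factors gave 2 over all genes, 3 classes in the fit gave 74, and thinned cells gave 1 in the pathway list. Without the replicate block edgeR called 0 genes (1261 at an unadjusted p below 0.05), with at least 4000 genes per cell 0 (1237) and in barcodes 33 to 64 0 (555); DESeq2 was not run at these. The block changed no call among the 10 genes.

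Signs turned in barcodes 1 to 32 for Wnt6 (-0.80), Axin1 (0.42), Apc (0.98), Ctnnbip1 (1.47) and Hipk2 (0.30), in barcodes 33 to 64 for Wnt6 (-1.66), Tcf7 (-2.20) and Lef1 (0.80), and in barcodes 65 to 96 for Tcf7l1 (1.01), Axin1 (1.08), Lrp6 (-0.12), Apc (1.51) and Hipk2 (1.25). Without barcodes 33 to 64 of replicate 1 they turned for Wnt6 (-0.030), Lef1 (1.34), Axin1 (0.079) and Apc (0.63). Lef1 was 0.079 by mean CPM and 0.67 without the top cell. Lrp6 was -0.042 in DESeq2, -0.043 with RLE factors, -0.032 with 3 classes and when thinned, -0.067 with the median cut and -0.50 without the top cell. The last 3 settings named (barcodes 65 to 96, replicate 1 without barcodes 33 to 64, and without the top cell) were chosen after seeing the data. The cause was not tested. Barcodes 65 to 96 could not be fitted with all 3 libraries, since replicate 3 has no keratin-high cell there. Against -0.01 with all cells, the median over all genes moved by over 0.1 with no filter (-0.12), without replicate 3 (0.12), without the block (-0.17) and in barcodes 1 to 32 (0.24) and 33 to 64 (-0.27).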

Other observations

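Wnt3a, a ligand that signals through beta-catenin belongs to the pathway list and did not pass in edgeR with all cells, while DESeq2 called it (log2 fold change 4.71, Benjamini-Hochberg adjusted p = 0.00134). Its level was 12.9, 39.9 and 23.0 CPM in keratin-high cells of replicates 1, 2 and 3, against 45.1, 0.51 and 0.21 CPM in keratin-low cells. In replicates 2 and 3 the keratin-high level was the higher, while in replicate 1 a single cell gave 83.3% of the keratin-low counts. Without replicate 1 the log2 fold change was 6.47 (edgeR, Benjamini-Hochberg adjusted p = 0.00828), and without barcodes 33 to 64 of replicate 1 it was 5.40 (edgeR, Benjamini-Hochberg adjusted p = 0.0143). The gene was named after its values had been seen.

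Klf2 is the gene of the reporter and one of the pluripotency genes that TCF7L1 binds in mouse embryonic stem cells. It stood at 115, 147 and 73.7 CPM in keratin-high cells of replicates 1, 2 and 3. In keratin-low cells it stood at 58.4, 630 and 369 CPM. Replicates 2 and 3 were lower in keratin-high cells and replicate 1 was higher. The log2 fold change was -1.30 with all cells (edgeR, Benjamini-Hochberg adjusted p = 0.610) and -2.02 without barcodes 33 to 64 of replicate 1 (edgeR, Benjamini-Hochberg adjusted p = 0.000302).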
